A study of Homo sapiens with 6 samples.

Results

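Genes of secreted stress factors, 10 in all, were examined in HK-2 cells, an established human kidney proximal tubule line, with and without *PPM1K* overexpression. They were GDF15, FGF21 and ADM2, which code for stress hormones, the activin subunit genes INHBA, INHBB and INHBE, the activin binders FST and FSTL3, and the stanniocalcins STC1 and STC2. All 10 were found by symbol among the 31369 genes of the count table. They were chosen by name, with the difference between overexpression (OE) and control (NC) in these same samples already known, so that difference is described for them, no p-value is printed, and counts of genes past a threshold serve only as a description. RNA was sequenced from 3 NC samples, with the genotype entry WT, and 3 OE samples, with the entry PPM1K overexpress. All 6 share a treatment entry of chronic kidney disease and the time entry day 10, while their titles read shControl or shPPM1K. The methods describe a *PPM1K* plasmid delivered by lipofection, with no disease treatment and no description of what the controls received, and the groups follow the genotype entries. The cell line entries of 5 samples carry other numbers after HK than 2, while the cell type entry reads HK-2 in all 6. The study's text calls its replication biological, but no source used here says whether the samples came from separate cultures, so p-values measure only the spread between these samples, which may be technical.

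Some of these genes, GDF15 and FGF21 among them, are known for signalling cell stress to other tissues. When the kinases of the integrated stress response slow translation, the factor ATF4 is made and switches on stress genes, among them FGF21, INHBE, ADM2 and STC2, while GDF15 is a target of ATF4 and CHOP. GDF15 lowers appetite through GFRAL and RET in the hindbrain, and FGF21 acts on metabolism through FGF receptors with beta-Klotho. Activins are dimers of inhibin beta subunits that signal through SMAD2 and SMAD3, and follistatin and FSTL3 bind activins and keep them from their receptors. STC1 and STC2 are glycoprotein hormones that inhibit the pappalysin proteases, which free IGF from its binding proteins.

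The sequence upstream of the start site is shown for FGF21, which holds the stress response element searched for, and for GDF15 and STC2, which were both higher in OE and do not hold it in this window. Sequences are from RefSeq on GRCh38.p14, 5′ to 3′ on the strand of the gene, and cover the 250 bases before the start. The capitals mark a match to the C/EBP-ATF response element, the motif that ATF4 and its partners bind.

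FGF21, chr19:48755274-48755523, plus strand: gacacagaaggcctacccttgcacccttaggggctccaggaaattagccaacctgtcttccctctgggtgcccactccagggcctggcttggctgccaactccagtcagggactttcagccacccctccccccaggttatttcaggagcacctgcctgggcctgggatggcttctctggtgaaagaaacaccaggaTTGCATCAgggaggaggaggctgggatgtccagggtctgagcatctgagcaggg

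GDF15, chr19:18385908-18386157, plus strand: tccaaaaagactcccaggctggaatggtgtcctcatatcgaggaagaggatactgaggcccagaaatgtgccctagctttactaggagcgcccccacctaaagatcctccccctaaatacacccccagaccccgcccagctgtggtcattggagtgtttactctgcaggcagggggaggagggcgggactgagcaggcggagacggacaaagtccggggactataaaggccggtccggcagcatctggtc

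STC2, chr5:173328415-173328664, minus strand: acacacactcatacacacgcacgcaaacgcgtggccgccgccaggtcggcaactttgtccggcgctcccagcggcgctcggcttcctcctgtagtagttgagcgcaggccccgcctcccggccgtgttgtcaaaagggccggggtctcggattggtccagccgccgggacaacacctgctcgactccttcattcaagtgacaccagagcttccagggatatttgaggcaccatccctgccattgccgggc

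The letters searched were TGATGNAA on both strands, in the 300 bases from 250 before to 50 after the start. Of the 10 genes, 8 had such a window in the table. INHBE and STC1 had no entry. FGF21 was the only one of the 8 with a match, TTGCATCA on the minus strand, which begins 54 bases before the start. Of 35116 windows, 3.62% held this motif. The letters TGANTCA, a loose form of the AP-1 motif with any base allowed at N, were also searched. They matched in the FST window alone, as TGATTCA, 160 bases before the start, and in 7.71% of all windows. A match to this loose form need not be an AP-1 site. None of the 8 held the hypoxia core ACGTG, found in 21.4% of all windows, the SMAD palindrome GTCTAGAC, in 0.202%, or the endoplasmic reticulum stress element named ERSE, in 0.0769%. These are letter matches and were not tested as binding sites.

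Levels of the genes were compared with each other in FPKM, the deposited values that divide fragments by transcript length and library size. In NC the order was INHBA, STC2, FSTL3, GDF15 and INHBE, and the ranges of these 5 did not overlap. INHBA stood at 80.8 ± 3.34 FPKM (SD, n = 3), rank 475 of 30896 genes, and STC2 at 43.4 ± 1.11. FSTL3 had 25.3 ± 1.75 FPKM, GDF15 12.4 ± 0.752 and INHBE 1.72 ± 0.0666. The other 5 were at 0.18 FPKM or less in every NC sample. The same order held in OE, with INHBA at 105 ± 6.42 FPKM and STC2 at 87.2 ± 3.12, except that FSTL3 and GDF15 could no longer be separated. FSTL3 ranged from 19.7 to 21.6 FPKM in OE and GDF15 from 19.9 to 20.8. These cells thus carried mainly INHBA and STC2 messages in both groups, while FGF21, ADM2 and INHBB were close to undetected.

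**Figure D1:**
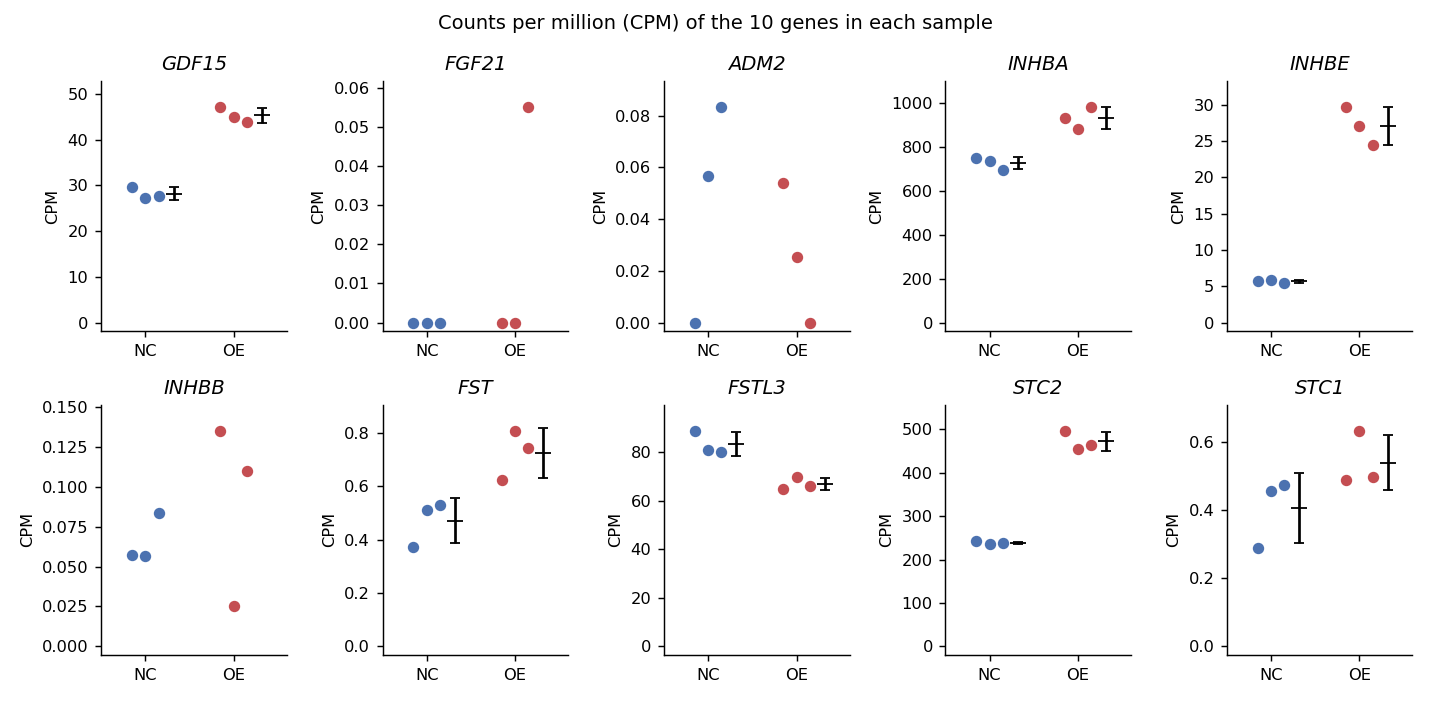
CPM, counts scaled to library size (vertical axis, a separate scale for each gene) in each of the 3 NC (blue) and 3 OE (red) samples, with the mean and SD in black for the 7 tested genes. INHBE rose from about 5.67 to 27.1 CPM, STC2 from 238 to 472 and GDF15 from 28.2 to 45.3, FSTL3 was lower in OE, and FGF21, ADM2 and INHBB stayed under 0.14 CPM in every sample.

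Of the 10 genes, 7 passed the filter on low counts and were tested with all other genes by edgeR's quasi-likelihood test. At an adjusted p under 0.05, 4 of the 7 were higher in OE (GDF15, INHBE, INHBA and STC2), where 24.9% of all 15878 tested genes were higher, and FSTL3 was lower, where 23.7% of all were. With a fold change above 2 required as well, INHBE was called higher, against 1.73% of all genes. None of the 7 was called lower, against 3.79% of all genes. NC and OE did not overlap in CPM in any of the 7 tested genes, nor in 55.3% of all tested genes. The median log2 fold change was 0.62 over the 7 and −0.0032 over all tested genes. Nothing is read from these counts, since the genes were chosen with this contrast known.

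**Figure D2:**
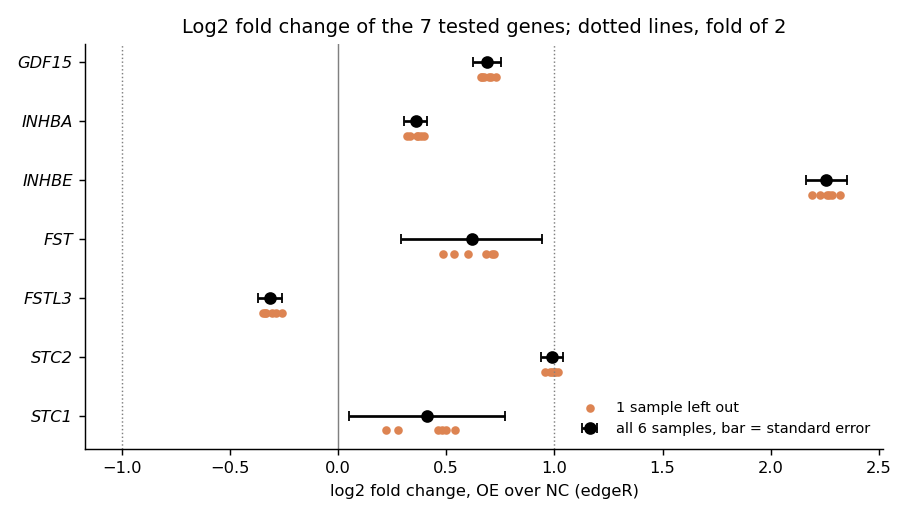
Log2 fold change of OE over NC (horizontal axis) for the 7 tested genes, with all 6 samples (black, bar for the standard error) and with each sample left out in turn (orange). INHBE lies at 2.26, STC2 at 0.99 beside the dotted line for a fold of 2, and FSTL3 at −0.31. FST and STC1 have the widest bars.

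Among the stress hormones, GDF15 was clearly detected. Its deposited counts were 1035, 956 and 992 in the NC samples, given in replicate order here and throughout, and 1742, 1775 and 1596 in the OE samples. Each OE sample lay above each NC sample. Scaled to library size as CPM, GDF15 went from 28.2 ± 1.38 (SD, n = 3) to 45.3 ± 1.67, a log2 fold change of 0.69 (standard error 0.07), or 1.61-fold. The coefficient of variation between replicates was 4.91% in NC, where counting alone gives 3.17%, and 3.67% in OE. GDF15 (ENSG00000130513.6) lies on the plus strand of chromosome 19, from 18374731 to 18389176 on GRCh38 in GENCODE release 44. This interval includes transcripts that begin farther upstream than the RefSeq start behind the sequence above, which therefore lies inside it, and distances to neighbours are counted from the interval. The miRNA gene MIR3189 inside it had 2 or 3 counts in every sample. PGPEP1, the coding gene 4781 bases before it, was also higher in OE, with a log2 change of 0.61 (SE 0.07, edgeR adjusted p = 5.6e-07).

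FGF21, a hormone made mainly by liver, had no counts in the 3 NC samples and in OE replicates 1 and 2, and 2 counts in OE replicate 3. In NC replicate 1, 0 of 34757732 counts allows a level of up to 0.0863 CPM, the limit for 3 counts. Both groups were under this floor, so no fold change is given and a difference was not detectable at this depth. FGF21 (ENSG00000105550.10) lies at 48755524 to 48758333 on the plus strand of chromosome 19. FUT1, a fucosyltransferase gene, starts 134 bases away on the opposite strand, so the FGF21 sequence above runs into it. FUT1 had 1 to 5 counts in NC and 11 to 20 in OE, a log2 change of 2.65 (SE 0.58, edgeR adjusted p = 0.00074). FUT1 was thus higher in OE at a low level while FGF21 was not detected in 5 of 6 samples. No overlap of the 2 genes is annotated.

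ADM2, also called intermedin, is a peptide of the calcitonin family. Its counts were 0, 2 and 3 in NC and 2, 1 and 0 in OE, at or under the floor of 3 counts in every sample. ADM2 (ENSG00000128165.9) lies on chromosome 22, from 50481543 to 50486440, plus strand, and 2381 bases of it are shared with SBF1 on the opposite strand. SBF1 had between 2552 and 2977 counts, and ADM2 at most 3. The related gene ADM, which codes for adrenomedullin, was well counted and rose from 13.1 to 23.8 CPM, a log2 change of 0.86 (SE 0.09, edgeR adjusted p = 1.8e-07). Of the 2 adrenomedullin genes, ADM was the one with a measurable level in these cells.

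INHBE, the activin beta E subunit gene best known from liver, changed most. Its counts were 200, 206 and 195 in NC and 1098, 1074 and 890 in OE. Even the lowest OE sample had over 4 times the highest NC count. In CPM it went from 5.67 ± 0.224 (SD, n = 3) to 27.1 ± 2.62, a log2 fold change of 2.26 (standard error 0.09), or 4.78-fold. Its rank by log2 fold change was 5 among the 11771 tested genes averaging 100 counts or more, where *PPM1K* stood first. Its replicates varied by 3.94% in NC and 9.65% in OE, and OE replicate 3 was the lowest of the OE samples.

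INHBE (ENSG00000139269.3) lies at 57452323 to 57459280 on the plus strand of chromosome 12, between INHBC, which ends 261 bases before it, and GLI1, which begins 505 bases after it. The library kit kept strand, but whether the counting did is not given in the sources used here. A lncRNA gene on the opposite strand, ENSG00000287200, overlaps INHBE by 1685 bases and had 12 to 32 counts in NC and 31 to 48 in OE. INHBC, the beta C subunit gene, had 0 to 2 counts in NC and 1 to 5 in OE. GLI1, a Hedgehog pathway factor, had 14 to 17 counts in NC and 22 to 43 in OE, a log2 change of 0.97 (SE 0.33, edgeR adjusted p = 0.019). The counts of both neighbours and of the lncRNA were small beside those of INHBE.

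INHBA, the beta A subunit of activin A, was the most abundant of the 10. Its counts were 26028, 25935 and 24991 in NC and 34374, 34890 and 35659 in OE. The groups did not overlap, and the rise was small in relation to the level. CPM went from 727 ± 27.9 (SD, n = 3) to 932 ± 49.6, a log2 fold change of 0.36 (standard error 0.05), or 1.28-fold. In FPKM the rise of 24.3 was larger than that of INHBE, 6.60, or of GDF15, 7.85. INHBA (ENSG00000122641.11) spans 41667168 to 41705834 of chromosome 7, minus strand, and INHBA-AS1 on the other strand had at most 38 counts in a sample.

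INHBB, the beta B subunit gene on chromosome 2, was hardly counted. It had 2, 2 and 3 counts in NC and 5, 1 and 4 in OE, in all 7 against 10, and the groups overlapped. INHA, the alpha subunit gene that pairs with a beta subunit to make inhibin, had 4 counts in OE replicate 1 and none elsewhere. Among subunit messages, INHBE made up 2.08% ± 0.0357 (SD, n = 3) of the summed FPKM of INHBA, INHBB and INHBE in NC and 7.36% ± 0.876 in OE. INHBA exceeded INHBE 47.1-fold in NC and 12.7-fold in OE. The beta A message was thus in excess in every sample.

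The activin binders differed in level and in direction. FSTL3, a secreted and nuclear follistatin relative, had 3095, 2847 and 2880 counts in NC and 2401, 2767 and 2394 in OE. Every OE sample was below every NC sample, the closest being OE replicate 2. CPM went from 83.3 ± 4.89 (SD, n = 3) to 67.0 ± 2.64, a log2 fold change of −0.31 (standard error 0.06). FSTL3 (ENSG00000070404.10) lies at 676392 to 683392 on the plus strand of chromosome 19 and overlaps no other annotated gene.

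FST, which codes for follistatin, was counted at 13, 18 and 19 in NC and at 23, 32 and 27 in OE. The values were 0.471 ± 0.0849 CPM (SD, n = 3) and 0.725 ± 0.0945 CPM, a log2 fold change of 0.62 with a standard error of 0.33. At this level counting error alone gives a coefficient of variation of 24.5% in NC. Follistatin message was therefore a minor part of the binders, FSTL3 being over 70 times higher in FPKM in each sample.

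Set against its binders, INHBA stood at 3.06, 3.31 and 3.15 times the summed FPKM of FSTL3 and FST in NC. In OE the ratio was 5.19, 4.56 and 5.39. The groups did not overlap, with means of 3.18 ± 0.125 (SD, n = 3) and 5.04 ± 0.432. Both parts of the ratio moved, INHBA upward and FSTL3 downward. These are message levels per length and say nothing of protein.

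**Figure D3:**
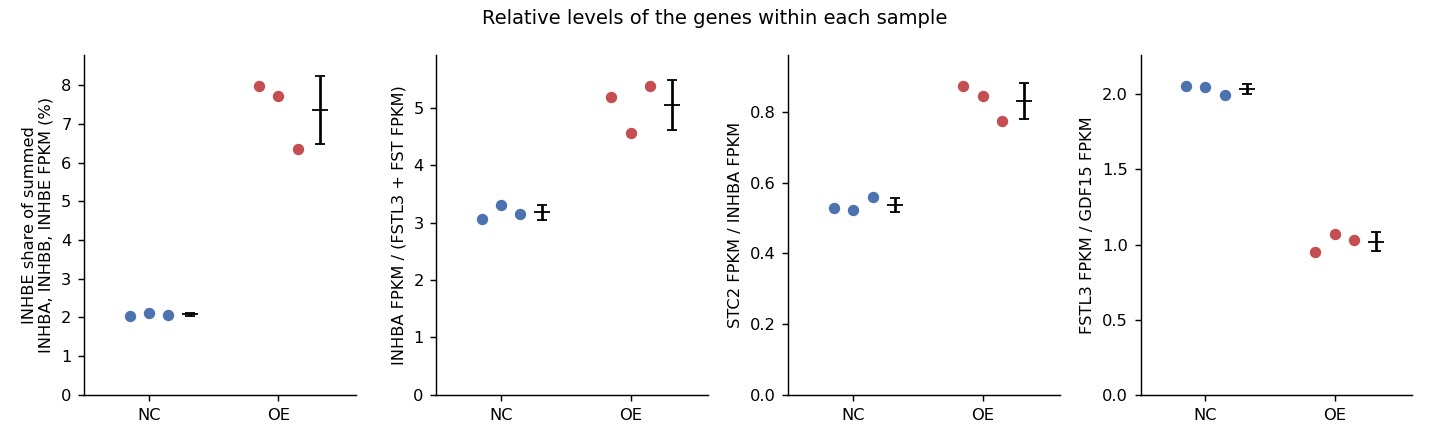
Ratios of FPKM, 4 in all, within each of the 3 NC (blue) and 3 OE (red) samples, with mean and SD in black and each axis starting at 0. The INHBE share of subunit FPKM, the INHBA to binder ratio and the STC2 to INHBA ratio were higher in all OE samples, and the FSTL3 to GDF15 ratio fell from about 2.04 to 1.02.

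STC2 had the largest rise in absolute level. Its counts were 8414, 8291 and 8546 in NC and 18367, 18005 and 16888 in OE. Replicates lay close together, with coefficients of variation of 1.33% in NC and 4.67% in OE, and the groups were far apart. CPM went from 238 ± 3.17 (SD, n = 3) to 472 ± 22.1, a log2 fold change of 0.99 (standard error 0.05), or 1.98-fold, just short of the fold change of 2 needed for a call. Without NC replicate 1 or without OE replicate 2 it passed, and over the 6 fits with a sample left out it stayed between 0.95 and 1.02. STC2 (ENSG00000113739.11) spans 173314723 to 173328447 of chromosome 5, minus strand, and overlaps no other gene.

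STC1, the other stanniocalcin, was rare in these cells. It had 10, 16 and 17 counts in NC and 18, 25 and 18 in OE. The lowest OE value, 0.487 CPM, was just above the highest NC value, 0.473 CPM. The log2 fold change was 0.41 with a standard error of 0.36. STC2 exceeded STC1 by between 394 and 822 times in FPKM, so nearly all stanniocalcin message was STC2. STC2 also came closer to INHBA in each OE sample than in any NC sample. The FPKM ratio was 0.537 ± 0.0195 (SD, n = 3) in NC and 0.831 ± 0.0510 in OE.

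Summed over the 10 genes, CPM rose from 1083 ± 34.1 (SD, n = 3) in NC to 1545 ± 55.5 in OE. STC2 accounted for 50.7% of the net difference and INHBA for 44.4%. INHBE, with the largest fold change, accounted for 4.65%, GDF15 for 3.72% and FSTL3 for −3.54%. Ordered by fold change, the genes that rose were INHBE, STC2, GDF15 and INHBA, while ordered by CPM gained they were STC2, INHBA, INHBE and GDF15. CPM is not scaled to transcript length, so these shares and the CPM order give more weight to long transcripts. In FPKM, STC2 gained 43.8, INHBA 24.3, GDF15 7.85 and INHBE 6.60, so GDF15 came before INHBE, and FSTL3 changed by −4.69.

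The genes most like GDF15 over the 6 samples, among tested genes averaging 100 counts or more, were LINC01278, AXL and ABITRAM, with a Pearson's r of log2 CPM of 1.00, 0.999 and 0.999. For INHBE they were ADGRB1, SRA1 and LPAR3, with r from 0.9996 to 0.9999. The samples form 2 separate groups of 3, which alone gives any gene that differs between them an r near 1, so these values are a description of 6 points. Of these genes, ADGRB1 had the largest log2 fold change, 1.68.

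The receptors, transducers, relatives and targets of these factors were counted in 7 lists written by function, with earlier results of these samples known. Of 99 listed genes, 69 were tested, and 19 were higher and 26 lower in OE by edgeR's test, with 0.05 as the limit for the adjusted p, where 24.9% of all tested genes were higher and 23.7% lower. The counts of each list below are to be read against these shares, which the lists as a whole come close to for higher genes. Over the 69 the median log2 fold change was −0.08, against −0.0032 for all tested genes.

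Among receptors of GDF15, FGF21 and ADM2, none of 6 tested genes was higher and 4 were lower, with a median log2 fold change of −0.50. All 4 were FGF receptors. FGFR3 fell from 27.1 to 11.5 CPM, a log2 change of −1.24 (SE 0.08, edgeR adjusted p = 6.2e-11), FGFR1 had −0.83, FGFR2 −0.75 and FGFR4 −0.24. The adjusted p of FGFR4 was not under 0.05 in 6 of 14 alternatives. KLB, the beta-Klotho gene that FGF21 needs as a co-receptor, had 1 count in 1 of the 6 samples. GFRAL, the GDF15 receptor, had no row in the table, and its partner RET was at 0.538 CPM in NC and 0.578 CPM in OE. CALCRL, the ADM2 receptor gene, was too rare to test. KLB was thus close to undetected, while RET was counted at a low level in both groups.

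Activin receptors and SMADs changed by less than a fold of 2. Of 11 tested genes, 3 were higher and 2 lower, shares near those of all tested genes. ACVR1, a type I receptor, had a log2 change of 0.37 (SE 0.07, edgeR adjusted p = 0.00030). SMAD3, a transducer of activin signals, had −0.23 (standard error 0.05, edgeR adjusted p = 0.0010). SMAD4, its common partner, had −0.26, and SMAD7, an inhibitor that the pathway induces, 0.19. SMAD4 did not pass in either limma fit on FPKM (adjusted p = 0.0564 and 0.061). SMAD7 had an edgeR adjusted p of 0.038, and between 0.0151 and 0.115 over its alternatives, 8 of 14 of which were not under 0.05. ACVR2A and ACVR2B, the type II receptors of activins, had values of 0.31 and −0.18 that did not pass.

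Of 10 tested genes known to respond to SMADs, none was higher and 7 were lower, with a median log2 fold change of −0.49. TGFBI, a matrix protein induced by TGF-beta, fell from 412 to 145 CPM, a log2 change of −1.5 (SE 0.05, edgeR adjusted p = 1.9e-15). ID1, which responds chiefly to BMP signals through other SMADs, fell from 14.8 to 2.72 CPM, with −2.44 (standard error 0.13, adjusted p = 2.9e-12), and ID3 fell too. CCN2, a matricellular protein, had −0.50. Other genes of the list moved less. PMEPA1 passed at −0.15, while ID2 at −0.33, SKIL at −0.15 and TGIF1 at −0.07 did not pass. The 7 lower genes fell in the same samples in which INHBA was higher and FSTL3 lower, and a link was not tested.

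Of 13 tested related ligands, 3 were higher, a share near that of all tested genes, and 5 were lower, with a median of −0.06. ADM was described above. BMP4 fell from 4.39 to 2.13 CPM, a log2 change of −1.04 (SE 0.16, edgeR adjusted p = 1.9e-05). BMP8B had −0.50 and TGFB2 −0.37, while TGFB1 had 0.21 (edgeR adjusted p = 0.0019). Of 10 tested extracellular binders, 2 were higher and 4 lower, with a median of −0.05. NOG, the BMP antagonist noggin, had 61, 35 and 36 counts in NC and 143, 130 and 130 in OE, with a log2 change of 1.52 (SE 0.21, edgeR adjusted p = 3.3e-06). BMPER had 0.93, while TWSG1, a modulator of BMP signals, had −1.02 and CHRDL1 −0.78.

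Transcription regulators known to act on the 10 genes were all tested, and 8 of 12 were higher and 3 lower, with a median of 0.29. DDIT3, which codes for CHOP, rose from 47.4 to 100.3 CPM, a log2 change of 1.08 (SE 0.06, edgeR adjusted p = 3.1e-12). CEBPG, a partner of ATF4, had 1.05, EPAS1, a hypoxia factor, 0.95 and CEBPB 0.93. The ATF4 message itself rose less, by 0.28 (standard error 0.06, adjusted p = 0.00042), from 567 to 687 CPM. The 3 lower genes were EGR1, an immediate early factor, with −0.78 (edgeR adjusted p = 5.0e-11), ATF3, a stress factor induced by ATF4, with −0.29 (6.8e-05), and PPARA, a nuclear receptor that induces FGF21 in liver, with −0.29 (0.046).

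Of the proteases that process these factors or are inhibited by stanniocalcins, with their IGF partners, 3 of 7 tested genes were higher and 1 lower, with a median of 0.02. PAPPA, the main pappalysin, had 16.8 CPM in NC and 17.0 CPM in OE. PAPPA2, its relative, had 0, 7 and 2 counts in NC and 49, 49 and 54 in OE, and was called higher (adjusted p = 9.8e-07 from edgeR). With so few NC counts its fold change is imprecise and ranged from 3.39 to 5.42 on the log2 scale over the alternatives on counts, the upper value being that without NC replicate 2. IGFBP4, the pappalysin substrate, had a log2 change of 0.40 (SE 0.10, edgeR adjusted p = 0.0036). IGF2 and PCSK7 had −0.49 and 0.19, and their adjusted p was not under 0.05 in 5 and 9 alternatives.

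**Figure D4:**
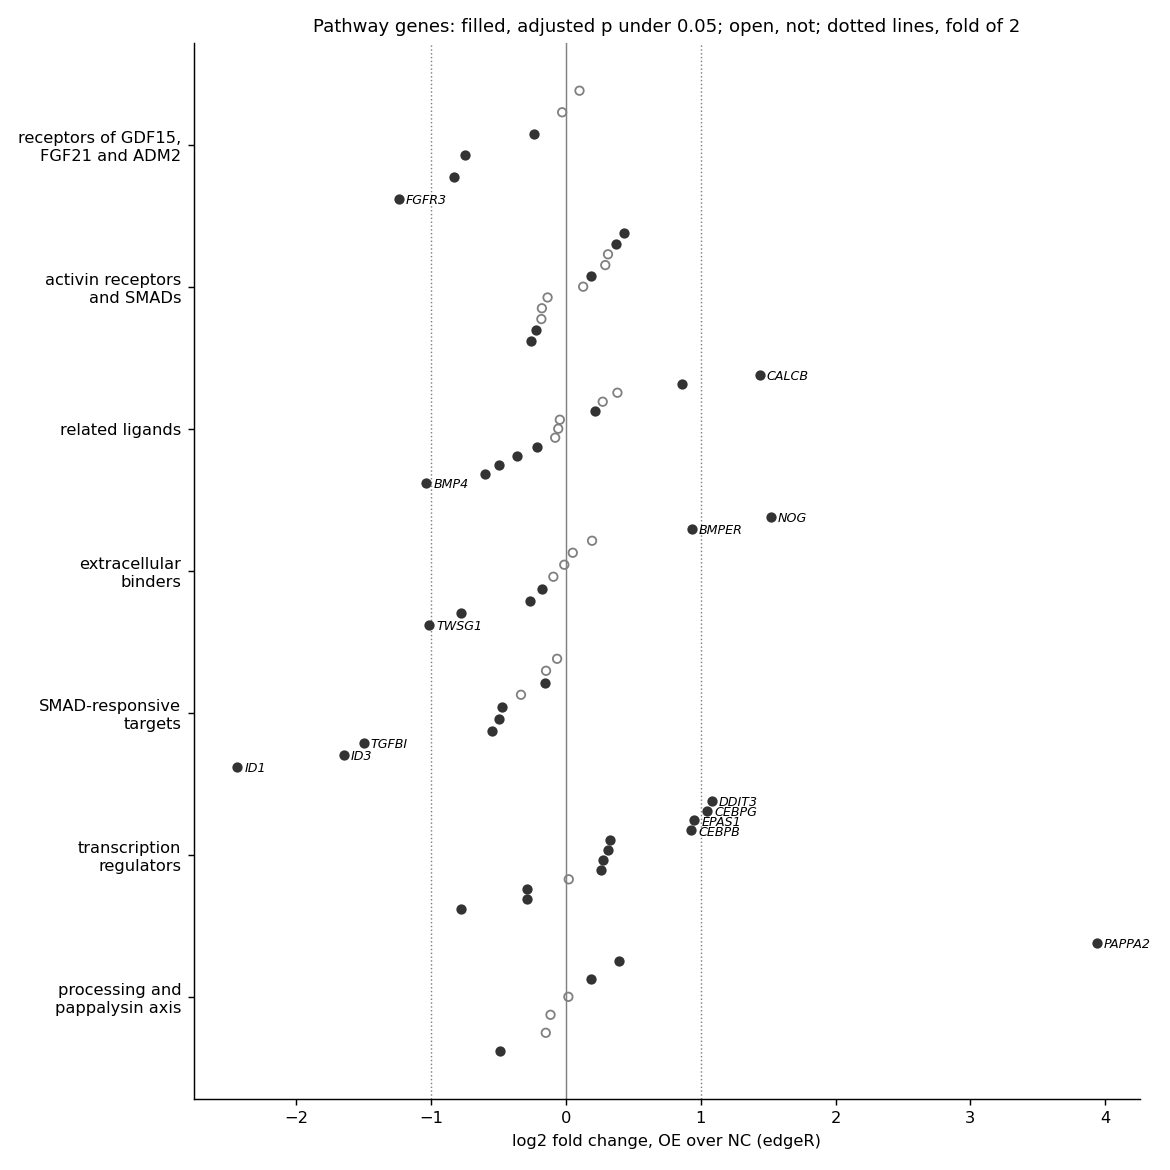
Log2 fold change of OE over NC (horizontal axis) for the 69 tested genes of the 7 lists (rows), filled where the adjusted p from edgeR was under 0.05 and open where not, with names beside changes above about 0.9. The FGF receptors and SMAD-responsive targets lie to the left of 0, the regulators mostly to the right, and PAPPA2 far to the right on few counts.

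The deposited counts summed to between 34635770 and 36116963 in NC and between 36033404 and 39850802 in OE. *PPM1K* had 19 to 53 counts in NC and 2919 to 3531 in OE, in the direction of the genotype entries. NC replicate 2 stood apart, with 26478 genes counted at least once against 22094 to 22913 in the other samples. The study also reports for this sample the largest shares of intronic, intergenic and antisense reads. Without NC replicate 2, 4 of the 10 genes were still higher and 1 lower, with 16 and 24 of the pathway genes. Of 9 renal epithelial markers 7 reached an FPKM of 1 in some sample, with sums of 816 to 913 FPKM in NC and 704 to 765 FPKM in OE. Of 15 proximal tubule markers only DPP4 did, with sums of 5.98 to 6.32 FPKM and 4.66 to 5.14 FPKM, while CUBN, HNF4A, AQP1 and SLC34A1 were near 0 and LRP2 had no FPKM row. Fibroblast markers summed to 2.94 to 3.10 FPKM in NC and 1.1 to 1.15 FPKM in OE, carried by COL1A1 and LUM, with COL1A2, DCN and PDGFRB at or near 0 and COL3A1 and PDGFRA without an FPKM row. Distal nephron, endothelial and immune markers summed to under 1 FPKM in every sample. The part of these shifts in the values above was not tested. In bulk RNA, fewer cells making a message and less message per cell cannot be told apart.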

How the data were processed

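RNA-seq of HK-2 cells was analysed in 3 NC and 3 OE samples. The authors dropped reads rich in N, trimmed the rest with FASTX-Toolkit, then dropped very short reads and mapped what was left to GRCh38 (HISAT2) and took unique alignments for gene totals. The deposited counts are not normalized and the deposited FPKM values, given to 2 decimals, are scaled by the authors to transcript length and mapped fragments. The submitters' processing notes also list mm10. The counting program, annotation and strand setting are not given in the sources used here.

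The counts were tested with edgeR 4.0.16 in R 4.3.3 (filterByExpr, TMM, quasi-likelihood F-test), with Benjamini-Hochberg adjustment over 15878 genes. Genes were called where the fold change exceeded 2 or was below 0.5 at an adjusted p under 0.05. CPM used the TMM-scaled library sizes. Standard errors were derived from the F statistic. The script was tested on simulated counts. Alternatives were DESeq2 1.42.0, 2 other normalizations, 2 other filters, limma 3.58.1 on log2(FPKM + 1) and log2(FPKM + 0.1), the replicate number as a block and each sample left out. Mean chi-square per gene between replicates was 5.13 to 11.8, where sampling noise alone gives about 1, so none were copies. Intervals and floors of 3 counts cover counting error only.

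Gene positions came from GENCODE release 44, which held 99.8% of the gene identifiers, and sequences from RefSeq. The 10 genes and all lists were chosen with earlier results of these data known. Named genes are the 10 members, *PPM1K*, from each list the up to 4 genes under 0.05 ranked first by adjusted p and the 3 genes most like GDF15 and INHBE. Genes adjoining or overlapping the members, and ID3, ATF4, EGR1, ATF3, PPARA, TGFB1, PAPPA, KLB, RET, GFRAL, CALCRL, ACVR2A, ACVR2B and INHA were named after their values were seen. So were PMEPA1, ID2, SKIL and TGIF1. Some list members are not reported here by name. Figures were drawn with matplotlib 3.10.9.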

Additional observations from a re-analysis of the deposited data

How the results depend on the processing

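All 98 values of the 7 tested genes under the alternatives kept their direction. The number of the 10 genes called higher was 1 in the count fits with all samples and 2 with limma on log2(FPKM + 0.1), and between 1 and 2 with a sample left out, the second gene being STC2 at the fold change threshold. It was 2 without NC replicate 1 and 2 without OE replicate 2. At an adjusted p under 0.05 alone, 4 genes were higher in every count fit. In both limma fits on FPKM 5 were higher, since FST passed there as well. With the replicate block, 4 of the 10 genes were higher and 1 lower, and 16 pathway genes were higher and 23 lower against 19 and 26. The deviations of same-numbered samples correlated at −0.0032, −0.0663 and −0.0542, so no shared variation by number was seen. These values cannot show whether same-numbered samples were handled together. Under the block, SMAD7 and PCSK7 no longer had an adjusted p under 0.05. Over all alternatives between 15 and 19 pathway genes were higher and between 21 and 31 lower. At this depth FGF21, ADM2 and INHBB were too rarely counted for any comparison.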
